A study of Saccharomyces cerevisiae with 10 samples.

Results

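Ubiquitin reaches its substrates through a relay. An activating enzyme (E1) charges ubiquitin, a conjugating enzyme (E2) carries it, and a ligase (E3) brings the charged E2 and the substrate together. HECT ligases take the ubiquitin onto themselves before passing it on, whereas RING ligases leave it on the E2. Cullin ligases are RING ligases built around a cullin scaffold, and in the SCF complexes a shared adaptor holds interchangeable F-box proteins that choose the substrate. In yeast this machinery sets the lifetime of cell cycle regulators, membrane transporters, chromatin proteins and the products of stalled translation.

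The transcripts described here are those of 39 genes of this machinery in *Saccharomyces cerevisiae*, a set that does not hold the edited gene *UBR1*. They are defined by gene identity and function and were matched by systematic identifier among the 6612 transcripts in the deposited tables. They are the E1 gene *UBA1*, 8 E2 genes, 4 HECT ligase genes, 12 RING ligase genes, 5 genes for the shared parts of cullin ligases, 7 F-box protein genes and *BUL1* and *BUL2*, which encode adaptors of the HECT ligase Rsp5. All 39 passed the filter on low counts, so all were among the 5987 transcripts tested.

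RNA was sequenced from 5 cultures of BY *UBR1* –469A>T and 5 cultures of BY. BY is a haploid laboratory strain, named BY4741 in the labels. BY *UBR1* –469A>T was made from BY by CRISPR-Swap, in which *UBR1* was first replaced by a drug marker and then restored from a repair template. The template carried the BY sequence except for 1 base, 469 bases upstream of *UBR1*, which was that of the vineyard strain RM. *UBR1* encodes the RING ligase of the Arg/N-end rule pathway. Both strains were grown in synthetic complete medium for about 7 hours to an optical density near 0.40, and the 10 cultures were harvested together and made into polyadenylated RNA libraries in 1 batch. By design the strains differ at that base, but the *UBR1* locus of the edited strain was also removed and rebuilt, whereas the paper calls its comparator wild-type. The paper describes the cultures as 5 independent biological replicates per strain, and it kept independently derived replicates of each allele swap. It does not state whether the 5 edited cultures used for RNA came from separate isolates. RNA was extracted in 2 batches. The batch and the density of each culture were not used here, because the labels do not give them.

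Libraries held 71103539 to 97644549 estimated counts in BY *UBR1* –469A>T and 72105131 to 94432416 in BY. At this depth the lowest estimated count of *UBC11* in any library was 70 and that of the other transcripts of the group was 816. Over all transcripts, replicates of 1 strain differed by far more than counting error, with a chi-square per degree of freedom of 67.5 to 544 between pairs. The edited gene itself was checked first. *UBR1* had 162, 166, 179, 175 and 183 CPM (counts scaled by library size and TMM, called normalized CPM) in the BY *UBR1* –469A>T libraries, against 156, 154, 157, 134 and 142 in the BY libraries. The strains did not overlap, and *UBR1* rose by a log2 fold change of 0.21 ± 0.047 (SE, adjusted p = 0.019 by edgeR's quasi-likelihood test). Fold changes throughout are those of BY *UBR1* –469A>T over BY, from a fit with 2 surrogate variables, which are covariates estimated from the counts themselves, and a transcript is called at a Benjamini-Hochberg adjusted p under 0.1.

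The most abundant transcript of the group and its close paralog encode E2 enzymes that share much of their sequence, which bears on how well their reads can be told apart. *UBC4* (YBR082C) lies on chromosome II (R64, 406628 to 407169, minus strand) and *UBC5* (YDR059C) on chromosome IV (569234 to 569770, minus strand), and each coding sequence is 447 bases long. The stretches below are coding bases 145 to 234 of each, read from the R64 genome at chrII:406841-406930 and chrIV:569447-569536 on the minus strand, with capitals at the 18 of 90 positions where the paralogs differ.
*UBC4*: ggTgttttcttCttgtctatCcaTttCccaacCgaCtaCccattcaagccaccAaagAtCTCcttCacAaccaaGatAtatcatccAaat
*UBC5*: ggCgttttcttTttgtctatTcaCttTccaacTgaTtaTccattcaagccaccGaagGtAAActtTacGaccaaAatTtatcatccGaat
Over the whole coding sequence, 102 positions differ and 77.2% are identical. The longest run without a difference is 14 bases, whereas Kallisto by default assigns reads by words of 31 bases. No word of that length is shared between the coding sequences of *UBC4* and *UBC5*.

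The same search over the other coding sequences matched to R64 found no shared 31-base word for 37 of the 39 genes. *CDC4* shares 126 of its 2310 words with *RRT13*, and *GRR1* shares 1, so the *CDC4* value is less certain than the others.

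In the reported fit, the 39 transcripts differed little between the strains. Of the 39, 8 were called (20.5%), against 21.2% of all transcripts tested, so the group was called about as often as the transcriptome. Only *UBC4* was called higher in BY *UBR1* –469A>T (2.56% of the 39, against 11.9% of all transcripts). The 7 called lower were *UBC1*, *HUL4*, *MOT2*, *CDC53*, *HRT1*, *BUL1* and *BUL2* (17.9%, against 9.32% of all transcripts). All differences were small in this fit. The largest log2 fold change in either direction was 0.15, and the median size was 0.060 over the 39 and 0.067 over all transcripts. The median log2 fold change was -0.0090 over the 39 and 0.0012 over all transcripts, and 19 of the 39 were positive, against 50.5% of all transcripts. Without covariates some differences were larger, such as 0.38 for *UBC11* and -0.33 for *HUL4*, beside within-strain SDs of 0.44 and 0.28 in log2 CPM.

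How many were called changed with the fit. The authors' own DESeq2 model, which also held extraction batch and optical density, called far fewer transcripts at the same threshold. In a fit with no surrogate variable, edgeR called 0 of the 39 and 0 of all 5987 transcripts, while 9 of the 39 had an unadjusted p under 0.05, against 23.4% of all transcripts. With 1 surrogate variable, 0 of the 39 were called by edgeR and 4 had an unadjusted p under 0.05 (13.5% of all transcripts did). The count also fell to 0 when replicate 2 or 3 of BY *UBR1* –469A>T or replicate 5 of BY was left out, with 4, 7 and 8 of the 39 then at an unadjusted p under 0.05 by edgeR, against 18.9%, 22.6% and 18.7% of all transcripts in these 3 fits. The direction of each of the 8 held in all 22 alternative fits, although the size of the change did not. Those fits reuse the libraries that chose the 8, so a kept direction is not independent support. With replicate number as a block and 0 surrogate variables, edgeR called 16 of the 39, against 2373 of all 5987 transcripts. That fit added *UBC5*, *RSP5*, *TUL1*, *HEL2*, *RAD18*, *BRE1*, *CUL3* and *MDM30*, which the reported fit did not call.

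**Figure D1:**
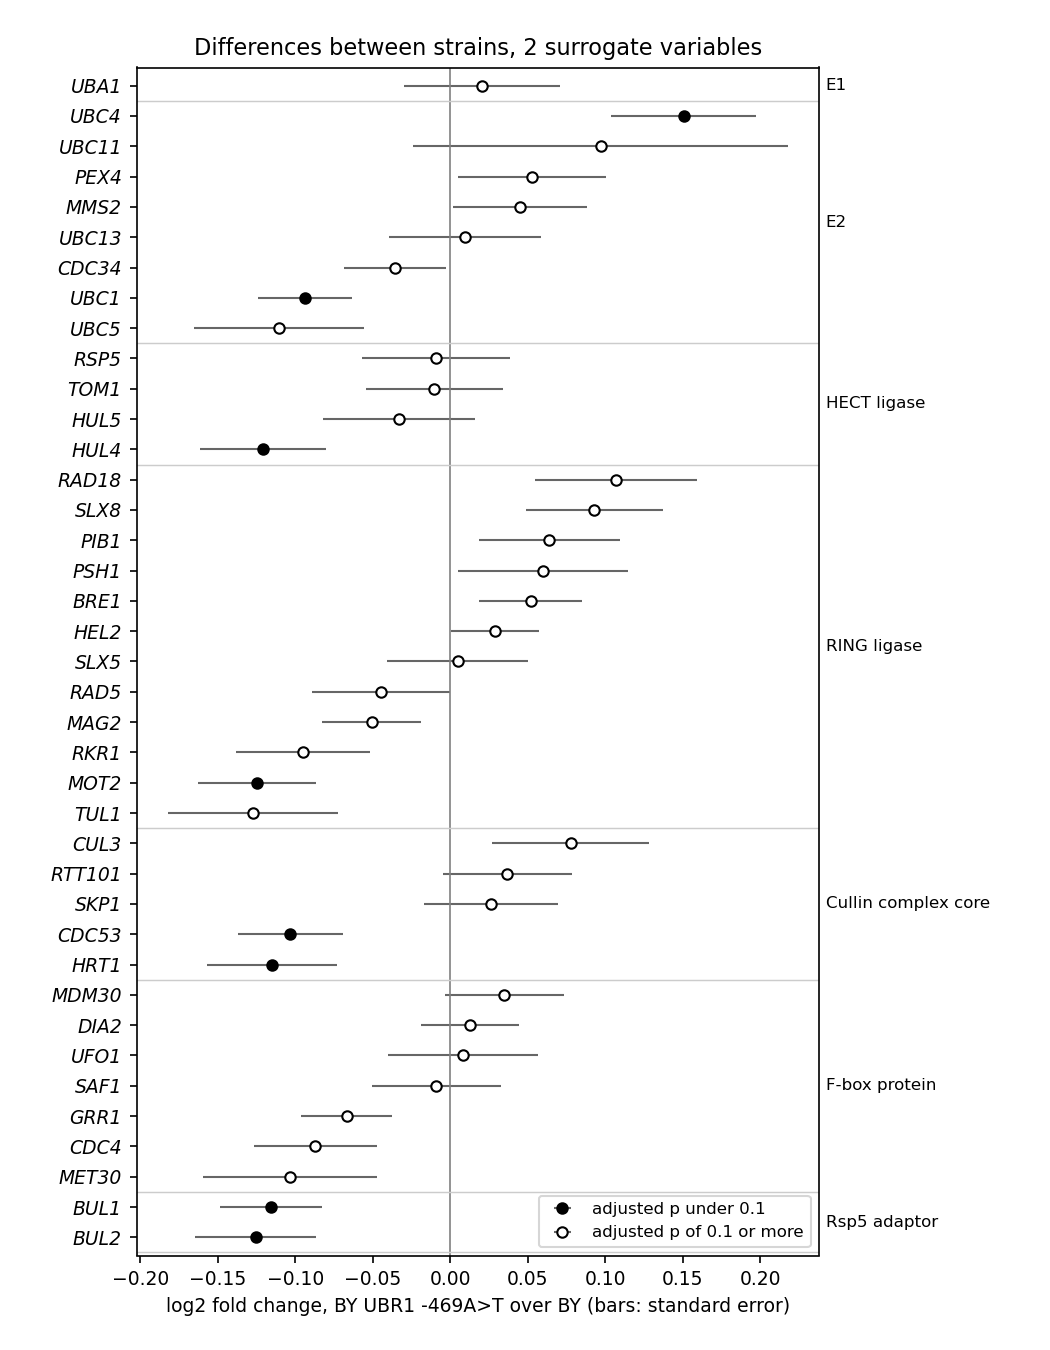
Log2 fold change of each of the 39 transcripts (horizontal axis, BY UBR1 –469A>T over BY, with 2 surrogate variables), grouped by role down the page. Points are estimates, bars are standard errors, and filled points are the 8 transcripts with an adjusted p under 0.1; only UBC4 lies to the right of 0 among them, and no estimate is larger than 0.15 in size.

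*UBA1* (YKL210W) encodes the E1 enzyme that charges nearly all ubiquitin in yeast. Its level in TPM, the unit that corrects for transcript length, was 87.9 ± 3.23 in BY *UBR1* –469A>T and 93.6 ± 7.24 in BY (SD, n = 5 each). In the fit on counts its log2 fold change was 0.02 ± 0.050 (SE, adjusted p = 0.83 by edgeR), so no difference was detected for the entry point of the relay.

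Among the 8 E2 transcripts, 1 was called higher and 1 lower. *UBC4* encodes an E2 that acts with many ligases in the turnover of short-lived and damaged proteins. Its normalized CPM was 471, 463, 528, 471 and 522 in the BY *UBR1* –469A>T libraries, against 392, 405, 428, 413 and 484 in the BY libraries. The 4 lowest values were all from BY, but BY replicate 5 lay above 3 of the BY *UBR1* –469A>T libraries. *UBC4* rose by a log2 fold change of 0.15 ± 0.047 (SE, adjusted p = 0.057 by edgeR), and an exact two-sided permutation test of log2 CPM without covariates gave p = 0.032.

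*UBC5* encodes a closely related E2 that overlaps with Ubc4 in function and is known for its induction by heat and in stationary phase. Its normalized CPM was 32.7, 30.8, 28.4, 25.6 and 27.0 in the BY *UBR1* –469A>T libraries, against 34.0, 36.3, 36.8, 29.7 and 29.9 in the BY libraries. The strains overlapped, and the log2 fold change of -0.11 ± 0.055 (SE) was not called (adjusted p = 0.20 by edgeR). *UBC5* therefore did not pass the test, with an estimate of opposite sign to that of *UBC4*.

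The balance between the paralogs was examined after their values had been seen. The ratio of *UBC4* to *UBC5* CPM was 14.4, 15.0, 18.6, 18.4 and 19.3 in the BY *UBR1* –469A>T libraries, against 11.5, 11.1, 11.6, 13.9 and 16.2 in the BY libraries. The mean ratio was 17.1 ± 2.25 in BY *UBR1* –469A>T and 12.9 ± 2.14 in BY (SD, n = 5 each). The strains overlapped only through BY replicate 5, which lay above the lowest values of BY *UBR1* –469A>T. Without covariates, the log2 ratio was higher by 0.42 in BY *UBR1* –469A>T (exact two-sided permutation test, p = 0.032). The log2 differences without covariates were 0.21 for *UBC4* and -0.21 for *UBC5*, both larger in size than the fitted changes given above. Leaving out 1 library at a time gave differences of 0.37 to 0.50 with p of 0.016 to 0.056, under 0.05 in 4 of 10 cases, so the result was not secure against the loss of 1 culture.

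**Figure D2:**
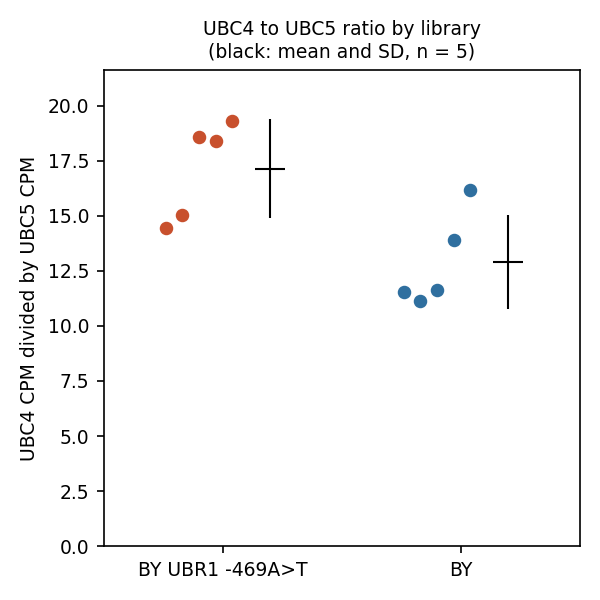
Ratio of UBC4 CPM to UBC5 CPM in each library (vertical axis, from 0), with BY UBR1 –469A>T on the left and BY on the right. Points are libraries in order of replicate number, and black marks are the mean and SD of 5 libraries; the mean is 17.1 in BY UBR1 –469A>T and 12.9 in BY, and the BY library at 16.2 lies within the BY UBR1 –469A>T range of 14.4 to 19.3.

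*UBC1* (YDR177W), on chromosome IV (R64, 816878 to 817525), encodes an E2 that extends ubiquitin chains and acts with the anaphase-promoting complex and in degradation from the endoplasmic reticulum. In normalized CPM, *UBC1* stood at 175, 162, 157, 156 and 148 in the BY *UBR1* –469A>T libraries, against 205, 186, 179, 167 and 160 in the BY libraries. The ranges overlapped between 160 and 175. *UBC1* fell by 0.09 ± 0.030 on the log2 scale (SE, adjusted p = 0.065 by edgeR), and the exact permutation test without covariates gave p = 0.056. The fitted change was -0.05 without replicate 1 or replicate 5 of BY.

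The other E2 transcripts were not called. *UBC13* and *MMS2* encode the catalytic subunit and the E2-like partner that together build lysine-63-linked chains in DNA damage tolerance. Their log2 fold changes were 0.01 and 0.04 (adjusted p = 0.92 and 0.53 by edgeR). The partners were also present at like levels per length, with a *UBC13* to *MMS2* ratio of mean TPM of 1.06 in BY *UBR1* –469A>T and 1.05 in BY. *CDC34*, the E2 of the SCF ligases, had a log2 fold change of -0.04 (adjusted p = 0.51 by edgeR). *PEX4*, the E2 that allows recycling of the peroxisomal import receptor Pex5, had 0.05 (adjusted p = 0.50 by edgeR). *UBC11*, which resembles E2 enzymes of mitotic cyclin destruction in other organisms, was the scarcest of the 39, with 2.62 ± 0.515 TPM in BY *UBR1* –469A>T and 2.23 ± 0.903 TPM in BY (SD, n = 5 each). Its highest BY library was 2.46 times its lowest, the widest spread of any of the 39 transcripts, and its log2 fold change of 0.10 ± 0.12 (SE) had an adjusted p of 0.64 by edgeR.

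All 4 HECT ligase transcripts had negative estimates, and 1 was called, while 50.5% of all transcripts had positive estimates and 21.2% were called. The estimates for *RSP5* and *TOM1* were both -0.01 and changed sign in 11 and 8 of 23 alternatives, so the shared sign was not secure. *HUL4* (YJR036C), on chromosome X (R64, 500713 to 503391), encodes a HECT ligase less well studied than Rsp5. Normalized CPM of *HUL4* was 42.6, 37.6, 32.1, 28.6 and 24.4 in the BY *UBR1* –469A>T libraries, against 36.6, 50.9, 44.9, 40.4 and 33.3 in the BY libraries. The libraries overlapped widely, and the highest BY *UBR1* –469A>T library was 1.75 times the lowest, the widest spread of the 39 in that strain. *HUL4* fell by 0.12 ± 0.041 on the log2 scale (SE, adjusted p = 0.075 by edgeR). Without covariates the difference was -0.33, beside a within-strain SD of 0.282 in log2 CPM, and the exact permutation p was 0.10. The fitted change was -0.08 without replicate 4 or replicate 5 of BY *UBR1* –469A>T.

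*RSP5*, the essential ligase that marks plasma membrane transporters for endocytosis, had a log2 fold change of -0.01 ± 0.048 (SE, adjusted p = 0.92 by edgeR). It was the most abundant of the HECT transcripts per length, at 18.9 ± 2.17 TPM in BY *UBR1* –469A>T and 22.0 ± 3.33 TPM in BY (SD, n = 5 each). *TOM1*, whose product removes excess ribosomal proteins, had a log2 fold change of -0.01, and *HUL5*, whose product works at the proteasome to extend chains on substrates, had -0.03 (adjusted p = 0.90 and 0.69 by edgeR).

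Of the 12 RING ligase transcripts, 1 was called. *MOT2* (YER068W), also called *NOT4*, lies on chromosome V (R64, 293050 to 294813) and encodes the RING ligase of the Ccr4-Not complex, which acts in messenger RNA decay and in the control of translation. Its normalized CPM was 69.7, 68.9, 65.8, 74.5 and 74.2 in the BY *UBR1* –469A>T libraries, against 77.5, 75.8, 74.6, 75.4 and 76.6 in the BY libraries. Each BY *UBR1* –469A>T library lay below each BY library, although replicate 4 of BY *UBR1* –469A>T, at 74.5, lay just under BY replicate 3, at 74.6. *MOT2* fell by 0.12 ± 0.038 on the log2 scale (SE, adjusted p = 0.055 by edgeR). The exact permutation test gave p = 0.0079, the smallest that the 252 splits of 10 libraries allow. *MOT2* was the only one of the 39 whose strains did not overlap in normalized CPM (2.56%, against 2.92% of all transcripts).

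The other 11 RING ligase transcripts were not called, and their log2 fold changes lay between -0.13 and 0.11. *TUL1*, whose product sorts membrane proteins in the Golgi, had the most negative at -0.13 ± 0.055 (SE, adjusted p = 0.15 by edgeR). *RAD18*, which ubiquitinates the replication clamp PCNA, had the most positive at 0.11 ± 0.052 (SE, adjusted p = 0.20 by edgeR). Its partner *RAD5*, which extends the chain on PCNA, had -0.04 (adjusted p = 0.55 by edgeR). Among these 11, *RKR1*, *HEL2* and *MAG2* act in the quality control of translation and ribosomes, and none of them passed the test. *RKR1*, also called *LTN1*, which marks nascent chains on stalled ribosomes, had -0.10, and *HEL2*, which senses collided ribosomes, had 0.03 (adjusted p = 0.17 and 0.54 by edgeR). *MAG2*, which encodes a RING ligase that acts on nonfunctional 40S ribosomes, had -0.05 (adjusted p = 0.33 by edgeR).

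Nuclear RING ligases were also without a call. *SLX5* and *SLX8* encode the subunits of the ligase that recognizes SUMO-modified proteins, and their log2 fold changes were 0.00 and 0.09 (adjusted p = 0.96 and 0.19 by edgeR). The *SLX8* to *SLX5* ratio of mean TPM was 1.42 in BY *UBR1* –469A>T and 1.33 in BY. *BRE1*, the ligase for histone H2B, had a log2 fold change of 0.05 (adjusted p = 0.33 by edgeR). *PSH1*, which removes the centromeric histone Cse4 from other sites, had 0.06 (adjusted p = 0.51 by edgeR). *PIB1*, an endosomal and vacuolar ligase, had 0.06 (adjusted p = 0.39 by edgeR).

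Among the 5 shared parts of cullin ligases, *CDC53* and *HRT1* were called lower. *CDC53* (YDL132W), on chromosome IV (R64, 224304 to 226751), encodes the cullin scaffold of the SCF complexes. Normalized CPM of *CDC53* was 224, 210, 204, 201 and 190 in the BY *UBR1* –469A>T libraries, against 252, 264, 242, 221 and 202 in the BY libraries. The 3 highest values were all from BY, and the lower BY libraries lay within the range of BY *UBR1* –469A>T. *CDC53* fell by 0.10 ± 0.034 on the log2 scale (SE, adjusted p = 0.069 by edgeR), with an exact permutation p of 0.063 without covariates.

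*HRT1* (YOL133W), on chromosome XV (R64, 70325 to 70690), encodes the RING subunit that binds Cdc53 and recruits the E2. In normalized CPM, *HRT1* stood at 42.3, 36.7, 34.6, 34.6 and 32.1 in the BY *UBR1* –469A>T libraries, against 46.7, 42.1, 42.9, 39.3 and 37.3 in the BY libraries. Only replicate 1 of BY *UBR1* –469A>T, at 42.3, reached into the BY range. *HRT1* fell by 0.11 ± 0.042 on the log2 scale (SE, adjusted p = 0.095 by edgeR), with an exact permutation p of 0.040 without covariates. The fitted change was -0.06 without replicate 5 of BY.

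The adaptor that bridges F-box proteins to the scaffold did not share these calls. *SKP1* had a log2 fold change of 0.03 ± 0.043 (SE, adjusted p = 0.73 by edgeR). Per length it was the second most abundant of the 39 transcripts, at 193 ± 18.6 TPM in BY *UBR1* –469A>T and 213 ± 20.7 TPM in BY (SD, n = 5 each). The *SKP1* to *CDC53* ratio of mean TPM was 5.40 in BY *UBR1* –469A>T and 4.92 in BY, and the *HRT1* to *CDC53* ratio was 2.48 in BY *UBR1* –469A>T and 2.50 in BY. The other cullins were not called. *RTT101*, whose ligase acts when replication forks meet damage, had a log2 fold change of 0.04 (adjusted p = 0.60 by edgeR), and *CUL3*, whose product ubiquitinates RNA polymerase II for its removal, had 0.08 ± 0.051 (SE, adjusted p = 0.34 by edgeR).

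None of the 7 F-box transcripts was called by edgeR, 0 were called by DESeq2, and 2 had an unadjusted p under 0.05 by edgeR. These were *GRR1*, which targets G1 cyclins and acts in glucose sensing, at -0.07 ± 0.029, and *CDC4*, which targets the cyclin kinase inhibitor Sic1, at -0.09 ± 0.039 (log2 fold change and SE, adjusted p = 0.15 and 0.17 by edgeR). *MET30*, which restrains the sulfur regulator Met4, had -0.10 ± 0.056 (SE, adjusted p = 0.25 by edgeR). The remaining F-box transcripts had log2 fold changes between -0.01 and 0.03. They were *UFO1*, which targets the Ho endonuclease, *DIA2*, which unloads the replicative helicase, *SAF1*, which targets adenine deaminase, and *MDM30*, which targets the mitochondrial fusion protein Fzo1. *SAF1* showed how wide the spread between cultures could be, and its values largely followed replicate number. From replicate 1 to 5, its normalized CPM fell at each step from 64.7 to 40.2 in BY *UBR1* –469A>T. In BY it was 56.8 in replicate 1, then fell from 68.6 in replicate 2 to 46.7 in replicate 5.

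Both Rsp5 adaptors were called lower. Bul1 and Bul2 are arrestin-like proteins that direct Rsp5 to the general amino acid permease Gap1 and other transporters. *BUL1* (YMR275C), on chromosome XIII (R64, 815651 to 818581), had 90.4, 87.0, 81.8, 85.1 and 78.4 normalized CPM in the BY *UBR1* –469A>T libraries, against 97.6, 101, 92.0, 97.0 and 88.2 in the BY libraries. Replicate 1 of BY *UBR1* –469A>T was the single library of its strain above the lowest BY value. *BUL1* fell by 0.12 ± 0.033 on the log2 scale (SE, adjusted p = 0.043 by edgeR), the smallest adjusted p of the 39, with an exact permutation p of 0.016 without covariates.

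*BUL2* (YML111W), on the same chromosome (R64, 46942 to 49704), had 71.3, 66.7, 64.0, 71.1 and 69.5 normalized CPM in the BY *UBR1* –469A>T libraries, against 83.0, 77.6, 73.2, 74.8 and 71.0 in the BY libraries. The overlap came from BY replicate 5 alone, at 71.0. *BUL2* fell by 0.13 ± 0.039 on the log2 scale (SE, adjusted p = 0.057 by edgeR), with an exact permutation p of 0.024 without covariates. The *BUL1* to *BUL2* ratio of mean TPM was 1.16 in BY *UBR1* –469A>T and 1.17 in BY.

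**Figure D3:**
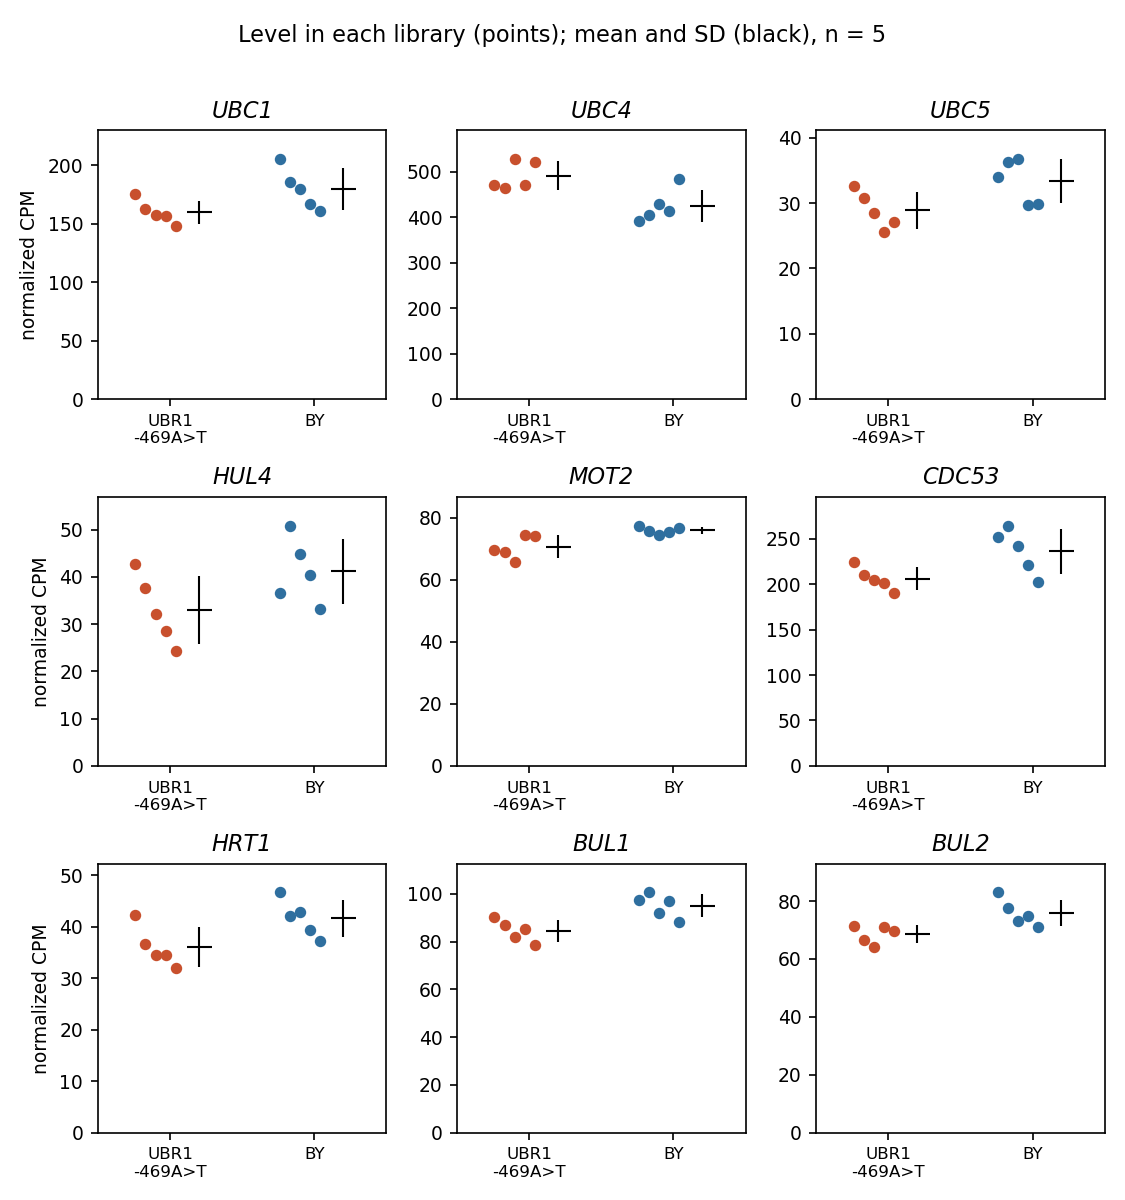
Normalized CPM in each library (vertical axes, from 0) of the 8 called transcripts and of UBC5, with BY UBR1 –469A>T on the left and BY on the right of each panel. Points are libraries in order of replicate number, and black marks are the mean and SD of 5 libraries; the 2 strains overlap in each panel except that of MOT2.

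The spread between cultures of 1 strain was as large as most of these differences. The highest library of a strain exceeded the lowest by a factor of 1.04 to 1.75 in BY *UBR1* –469A>T (median 1.16) and 1.03 to 2.46 in BY (median 1.23). For 21 of the 39 transcripts, the SD of log2 CPM within strains was larger than the size of the difference between strains without covariates. The median of that SD was 0.109 over the 39 and 0.127 over all transcripts, so the group was not measured less evenly than others. *HUL4*, *CUL3*, *SAF1* and *UBC11* varied most, whereas *GRR1* and *MAG2* varied least, with SDs of 0.036 and 0.042. Some of this spread was ordered by replicate number. *CUL3* rose at each step in both strains. *HUL4* and *SAF1* fell at each step in BY *UBR1* –469A>T, and from replicate 2 on in BY.

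**Figure D4:**
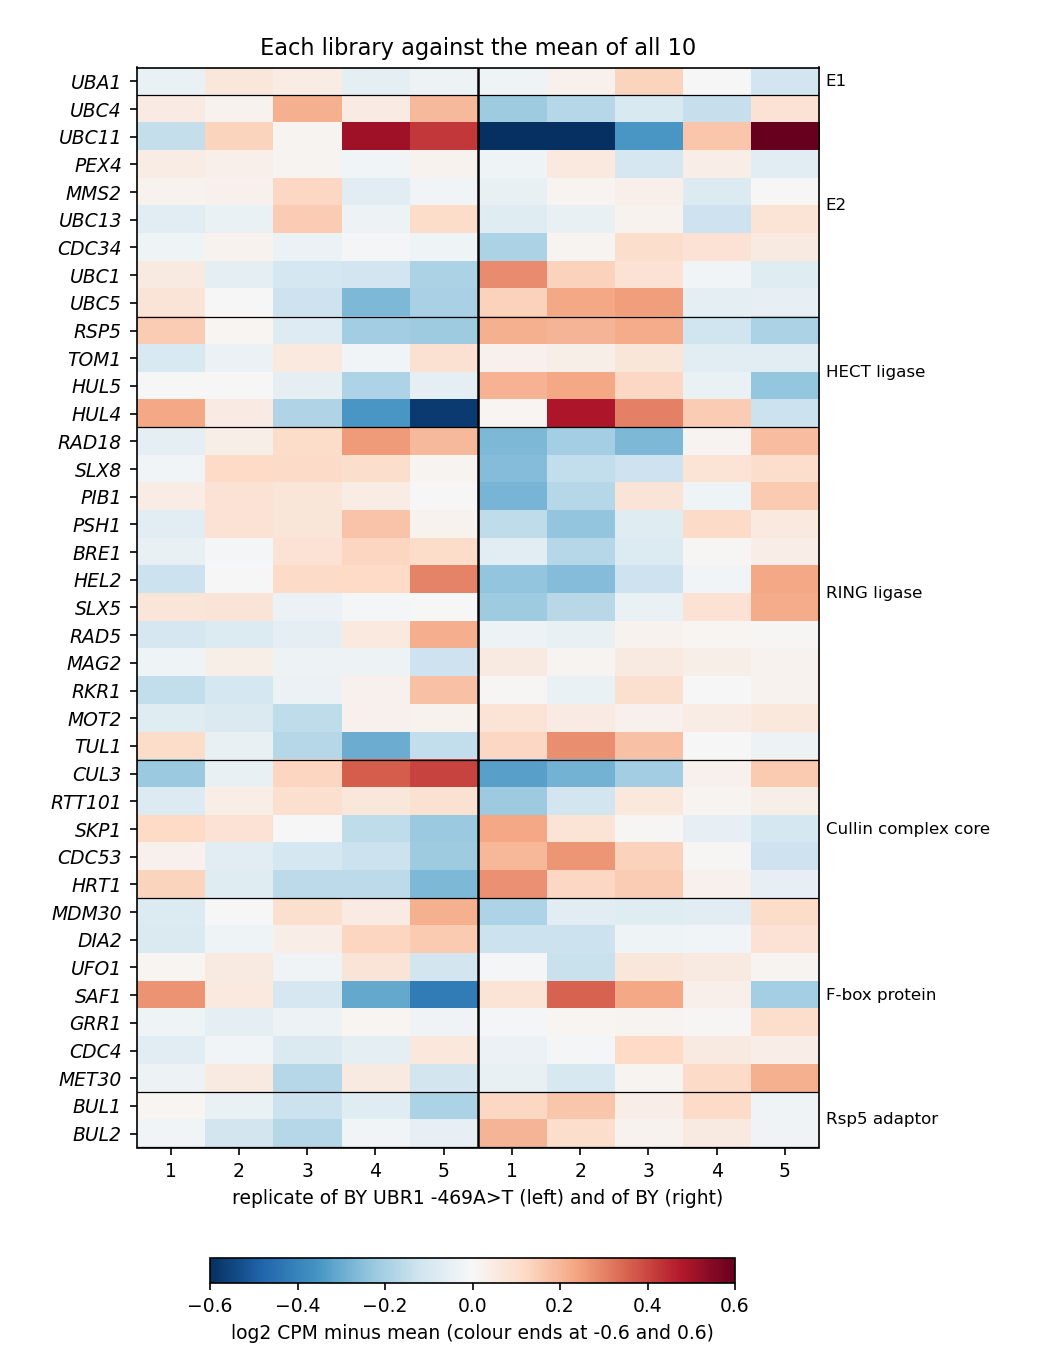
Log2 CPM of each of the 39 transcripts in each library, minus its mean over all 10 libraries (colour, ending at -0.6 and 0.6), with the 5 BY UBR1 –469A>T libraries on the left and the 5 BY libraries on the right. Rows are grouped by role; colours differ within a strain as well as between strains, most in HUL4, CUL3, SAF1 and UBC11.

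Levels per length differed widely between roles. *UBC4* alone stood at 816 ± 60.6 TPM in BY *UBR1* –469A>T and 746 ± 63.8 TPM in BY (SD, n = 5 each), and made up 37.5 to 42.1% of the summed TPM of the 39 in BY *UBR1* –469A>T libraries and 32.8 to 39.3% in BY libraries. The median E2 transcript had 89.4 TPM in BY *UBR1* –469A>T and 94.2 TPM in BY. All 23 HECT, RING and F-box transcripts averaged below 30 TPM in both strains. The median HECT ligase transcript had 9.81 TPM in BY *UBR1* –469A>T and 10.9 TPM in BY. RING ligases had a median of 15.0 TPM in BY *UBR1* –469A>T and 14.6 TPM in BY, and F-box proteins one of 11.6 TPM in BY *UBR1* –469A>T and 13.1 TPM in BY. *UBC4* was 17.0 times as abundant as *UBC5* by mean TPM in BY *UBR1* –469A>T and 12.7 times in BY.

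The choice of scale mattered to how cleanly strains separated. In TPM as deposited, which has no scaling between libraries beyond the sum, 5 of the 39 transcripts did not overlap between strains (12.8%, against 6.21% of all transcripts), and all 5 were lower in BY *UBR1* –469A>T (12.8%, against 5.95% of all transcripts), with 0 higher (0.267% of all transcripts). They were *MAG2*, *MOT2*, *GRR1*, *BUL1* and *BUL2*. Of the 372 transcripts that did not overlap in TPM, 356 were lower in BY *UBR1* –469A>T, so TPM placed most separated transcripts on that side. *MAG2* had 19.9 to 21.6 TPM in BY *UBR1* –469A>T and 22.3 to 23.7 TPM in BY, but was not called from counts.

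**Figure D5:**
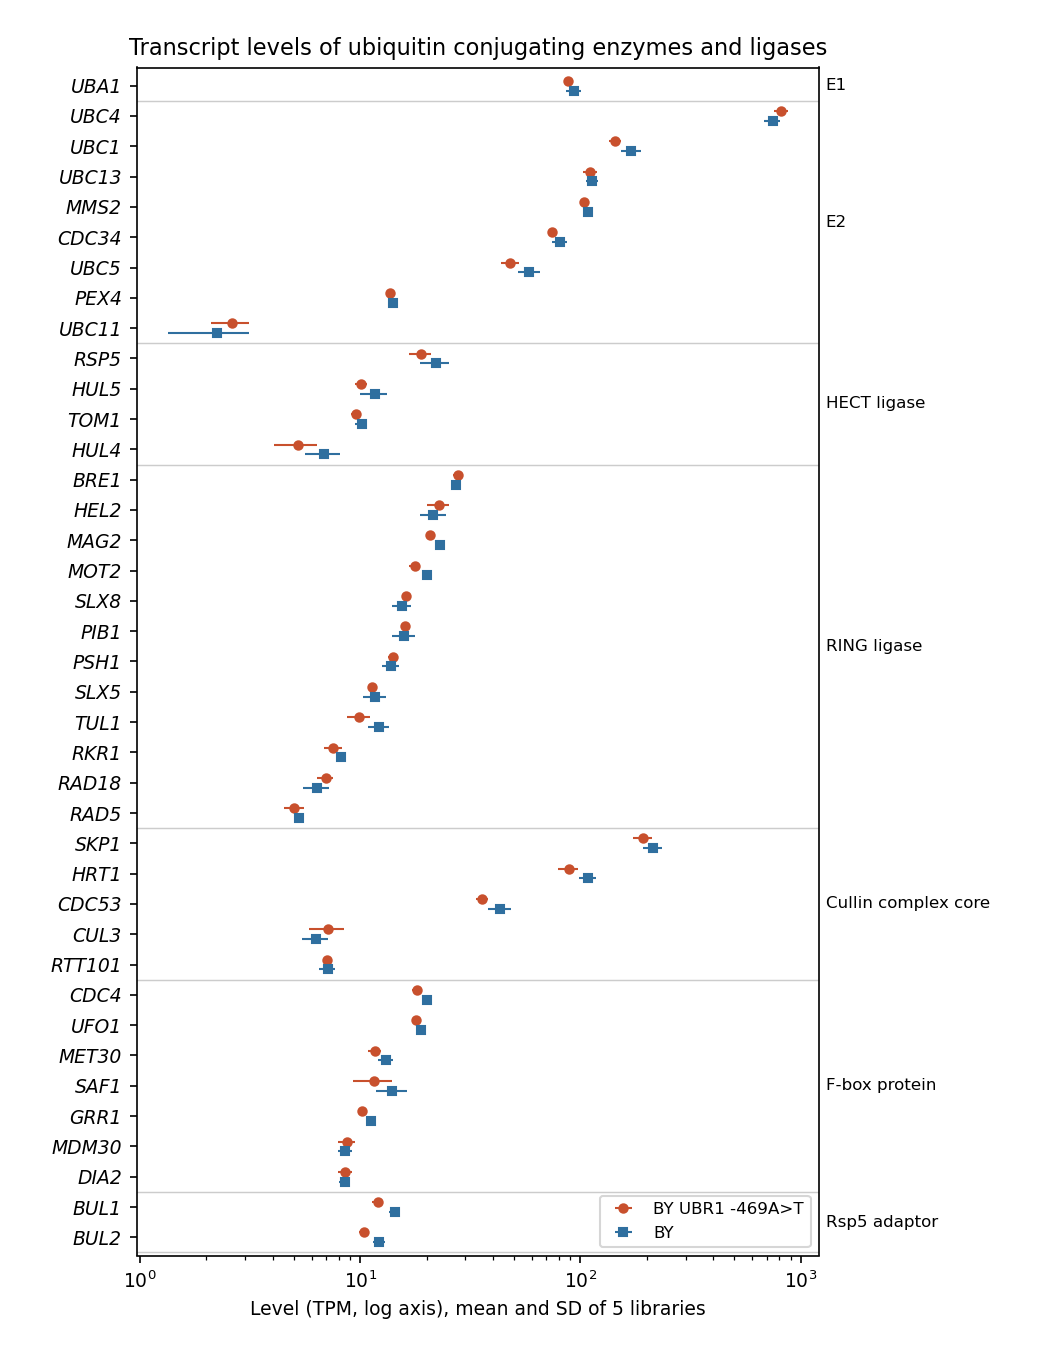
Mean TPM of each of the 39 transcripts (horizontal log axis), grouped by role down the page, for BY UBR1 –469A>T and BY, with bars for the SD over 5 libraries. UBC4 is the most abundant at 816 TPM in BY UBR1 –469A>T and 746 TPM in BY, and UBC11 the least at 2.62 TPM in BY UBR1 –469A>T and 2.23 TPM in BY.

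Promoters were searched for the motif read by Rpn4, the activator of proteasome genes, because Rpn4 targets include ubiquitin genes. The letters GGTGGCAAA, on either strand in the 500 bases before the start codon, were found in 98 of 5915 promoters (1.66%) and in 2 of the 39. The matches are shown with 10 bases on each side where they fall, from the R64 genome, on the strand of the gene and with the motif in capitals.
*UBA1*, chrXI:39024-39052, plus strand, 129 bases before the start codon: aaaaggtgcgGGTGGCAAAtaaaggtaaa
*BUL1*, chrXIII:818930-818958, minus strand, 367 bases before the start codon, motif reversed: caatctctgaTTTGCCACCgggataccgt
*BUL1* was called lower and *UBA1* was not called. The heat shock element, searched on both strands as GAA, TTC and GAA with 2 bases between neighbours, was in 87 promoters (1.47%) and in 0 of the 39. A match is a string of letters and not evidence of binding.

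Related genes were read from 11 lists with 136 genes in all, each of which was tested. In them 11 genes were called higher and 24 lower (25.7%, against 21.2% of all transcripts). Of 29 other E2 and E3 genes, 5 were called higher and 2 lower. The largest changes there were those of *UBR1*, at 0.21, and *ASR1*, which encodes a RING ligase that binds RNA polymerase II, at a log2 fold change of 0.18 ± 0.040 (SE, adjusted p = 0.019 by edgeR). None of the 4 genes that encode ubiquitin was called by edgeR, although 1 had an unadjusted p under 0.05 and DESeq2 called 2 higher.

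The other Rsp5 adaptors were called in both directions. Of 18, 4 were called higher and 6 lower (55.6%, against 21.2% of all transcripts). *RCR1*, which encodes a membrane protein that binds Rsp5, rose by 0.43 ± 0.058, and *CSR2*, which encodes an arrestin-related adaptor, fell by 0.35 ± 0.061 (log2 fold change and SE, adjusted p = 0.0015 and 0.0050 by edgeR). *RCR1* averaged 65.6 ± 8.13 normalized CPM in BY *UBR1* –469A>T and 43.8 ± 16.5 in BY (SD, n = 5 each), and the strains overlapped.

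Of 13 other F-box genes, 0 were called higher and 5 lower (38.5%, against 9.32% of all transcripts called lower). The lower count ran from 1 to 8 when 1 library was left out and was 0 with 0 surrogate variables. *YLR352W* fell by 0.24 ± 0.041 and *YMR258C* by 0.18 ± 0.036 (log2 fold change and SE, adjusted p = 0.0054 and 0.013 by edgeR). Of 8 genes of neddylation, which are *RUB1*, the gene of the ubiquitin-like protein carried by Cdc53, and genes for its attachment and removal, only *ULA1*, a subunit of the activating enzyme for Rub1, was called, and it fell by 0.25 ± 0.049 (SE, adjusted p = 0.0095 by edgeR). Of 5 partners of Rtt101 and Cul3, only *ESC2*, which has SUMO-like domains, was called, at 0.13 ± 0.045 (SE, adjusted p = 0.077 by edgeR). Of 16 genes of the anaphase-promoting complex, 3 were called lower, a count that was 0 without replicate 1, 2 or 3 of BY *UBR1* –469A>T or replicate 2 or 4 of BY. Among them were *APC4*, which encodes a core subunit, at -0.15, and *CDH1*, which encodes an activator, at -0.11 (adjusted p = 0.070 and 0.092 by edgeR).

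In the lists for *MOT2*, for *RKR1* and *HEL2*, for *SLX5* and *SLX8* and for *MET30*, the called share ran from 0% to 29.4%, against 21.2% of all transcripts. The share among the other Rsp5 adaptors, given above, was higher, at 55.6%. Of 8 Ccr4-Not partners of *MOT2*, only *POP2*, which encodes a deadenylase, was called, and it fell by 0.10 ± 0.033 (SE, adjusted p = 0.059 by edgeR). *POP2* averaged 104 ± 3.16 normalized CPM in BY *UBR1* –469A>T and 113 ± 2.48 in BY (SD, n = 5 each), and its strains did not overlap. Of 9 partners of *RKR1* and *HEL2* on stalled ribosomes, *ASC1*, a ribosomal scaffold, rose by 0.18 ± 0.038, and *RQC1*, a part of the quality control complex, fell by 0.11 ± 0.032 (log2 fold change and SE, adjusted p = 0.013 and 0.042 by edgeR). Of 9 genes of the SUMO pathway, 0 were called by edgeR, 1 had an unadjusted p under 0.05 and DESeq2 called 1 lower. Of 17 genes of the regulon of Met4, which Met30 restrains, with *MET4* itself among them, 0 were called higher and 5 lower (29.4%). Of all transcripts, 9.32% were called lower. The largest changes were those of *SUL1*, a sulfate permease, at -0.63 ± 0.15, and *MMP1*, an S-methylmethionine permease, at -0.49 ± 0.087 (log2 fold change and SE, adjusted p = 0.020 and 0.0060 by edgeR). *SUL1* was scarce, at 0.790 ± 0.109 normalized CPM in BY *UBR1* –469A>T and 1.25 ± 0.248 in BY (SD, n = 5 each).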

How the data were processed

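The authors trimmed and filtered reads with fastp and pseudoaligned them to Ensembl release 96 transcripts with Kallisto, tools that the submitters' processing notes also name, with versions not given in the sources used here. Kallisto's estimated counts, as deposited without normalization, were rounded to whole numbers for testing. TPM, as deposited by the authors, sums to the same total in each library and holds no depth, and it served only to compare levels between genes and to show how strains overlap on that scale.

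A transcript was tested where its rounded count reached 10 in all 10 libraries and Kallisto's effective length was 1 or more, which left 5987 of 6612. The authors' filter on transcript integrity was not applied here. Strains were compared by the quasi-likelihood test of edgeR 4.0.16 (R 4.3.3) with TMM scaling and 2 surrogate variables (svaseq, sva 3.50.0, estimated on TMM-scaled counts), with Benjamini-Hochberg adjustment over all transcripts tested. The SE was derived from the fold change and the F statistic. Extraction batch and optical density, which the authors' model holds, were not used here. Exact two-sided permutation tests used log2 CPM without covariates. DESeq2 1.42.0 was an alternative. The scripts were tested on simulated data.

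Samples were grouped by the genotype in their labels. The members, roles and lists were chosen with earlier results of these data known. Each of the 39 members is accounted for by role. Values per library are given for members that were called or whose strains did not overlap and for the paralog pairs *UBC4* and *UBC5* and *BUL1* and *BUL2*, and each list names at most the 2 called genes of largest log2 fold change. Of the deposited transcripts, 5917 matched R64 coding sequences, 99.8% with the same length, and all 39 members did so, so coordinates are those of R64. P-values by edgeR measure the spread between these cultures that is left after a fit's covariates. Those of the permutation tests use the spread without covariates.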

Additional observations from a re-analysis of the deposited data

Results flagged for a closer look

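In 84 groups of 5 libraries, 1 library stood apart from the rest of its group by Dixon's test, where chance alone flags about 1 in 20 groups. *GRR1*, the F-box gene for G1 cyclin turnover, had 93.1 normalized CPM in BY replicate 5, whereas the other 4 BY libraries lay between 85.9 and 87.6. The gap was 0.759 of the group's range, above the critical value of 0.71.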

How the results depend on the processing

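Of the 39 members, 8 were called in the reported fit and also with DESeq2, upper-quartile scaling and DESeq2 size factors. The count was 0 with 0 surrogate variables, 0 with 1, and 11 with 3, and 1 (*BUL1*) at an adjusted p under 0.05. It was 16 (6 higher, 10 lower) with a replicate block and 0 surrogate variables, which also called *UBC5*, *RSP5*, *TUL1*, *HEL2*, *RAD18*, *BRE1*, *CUL3* and *MDM30*, and 0 with the block and the 2 surrogate variables. It was 26 (12 higher, 14 lower) when the surrogate variables were estimated again within the block and 0 when they were estimated on counts not scaled to library size, both chosen after seeing the data. All transcripts called numbered 1269 in the reported fit, and 1430, 1248 and 1256 with DESeq2, upper-quartile scaling and DESeq2 size factors. They numbered 0, 43 and 1841 with 0, 1 and 3 surrogate variables, and 756 at the stricter threshold. They numbered 2373, 43 and 3274 under the same 3 block fits, and 118 with unscaled counts. Leaving out each library in turn gave 0 to 9 members and 246 to 1289 transcripts. Members numbered 0 without replicates 2 or 3 of BY *UBR1* –469A>T or replicate 5 of BY, 3 without replicate 1 of BY *UBR1* –469A>T or replicate 2 of BY, and 4 without replicate 4 of BY *UBR1* –469A>T or replicate 1 of BY. Transcripts numbered 989, 329, 699 and 801 without replicates 1, 2, 3 and 4 of BY *UBR1* –469A>T. They numbered 1194, 846 and 246 without replicates 1, 2 and 5 of BY. The cause was not tested. The members' median log2 fold change ran from -0.024 to 0.012 over these. The *UBC4* to *UBC5* difference without covariates ran from 0.37 to 0.50 when each library was left out, an alternative chosen after seeing the data, and was 0.42 in TPM.

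The 8 called members kept direction in 176 of 176 values over 22 other fits. These fits reuse the libraries that chose the 8, so a kept direction is not independent support. *GRR1*, *MAG2*, *MDM30*, *MET30* and *PEX4*, which were not called in the reported fit, also kept direction. With the stricter threshold as a further alternative, the 8 called members stayed called in 95 of 184. Their log2 fold changes over these fits ran from 0.12 to 0.21 for *UBC4*, -0.17 to -0.05 for *UBC1*, -0.33 to -0.04 for *HUL4*, -0.14 to -0.02 for *MOT2*, -0.20 to -0.01 for *CDC53*, -0.21 to -0.06 for *HRT1*, -0.17 to -0.10 for *BUL1* and -0.15 to -0.03 for *BUL2*. Every list had 0 calls with 0 or 1 surrogate variables and no replicate block. With the block and 0 surrogate variables, 3 other Rsp5 adaptors were called higher and 6 lower, and 1 other F-box gene higher and 3 lower. The same fit called 1 higher and 7 lower in the Met4 regulon and 3 higher and 2 lower in the anaphase-promoting complex. Among other E2 and E3 genes it called 5 higher and 7 lower. Leaving out 1 library gave 2 to 3 higher and 3 to 6 lower among the other Rsp5 adaptors, 0 higher and 1 to 8 lower among other F-box genes, 0 to 1 higher and 3 to 5 lower in the Met4 regulon, 0 to 1 higher and 0 to 2 lower in the anaphase-promoting complex, and 2 to 6 higher and 0 to 4 lower among other E2 and E3 genes. The estimate for *UBC5* changed sign once, to 0.0022 (adjusted p = 0.997 by edgeR) with the replicate block and 2 surrogate variables. Same-numbered libraries correlated at 0.29, 0.52, -0.01, 0.48 and 0.68 in their deviations for replicates 1 to 5. Of the 5 BY *UBR1* –469A>T libraries, 3 correlated best with their own number. Some transcripts moved in order of number in both strains. From replicate 1 to 5, *UBC1* fell at each step, from 175 to 148 normalized CPM in BY *UBR1* –469A>T. In BY it fell from 205 to 160. The labels do not say what a number marks. Whether numbers pair cultures was left undecided, and the reported fit and the permutation tests did not use them. *UBC11*, with as few as 70 estimated counts, was the member most limited by depth. *UBR1* stayed called in 18 of the 23 alternatives.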
